A study of Mus musculus with 3 samples.

Results

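The cornified envelope genes of the mouse were followed in dorsal skin, by name: every gene of the deposited gene list whose symbol starts with Sprr or Lce, and 9 further genes, *Lor*, *Ivl*, *Flg*, *Flg2*, *Hrnr*, *Rptn*, *Tgm1*, *Tgm3* and *Casp14*. This gave 45 members among 32285 genes, of which 15 were Sprr genes and 21 Lce genes. The rule uses symbols only and no measured value, but it was set with earlier results of these data known.

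Dorsal skin of female C3H/HeN mice aged 25 weeks was digested with collagenase D, and single cells were captured for droplet-based single-cell RNA sequencing. Neg was labelled a vehicle control and described as unaffected, AA was the alopecia areata (AA) model, and AA+Ab was the same model given an antibody that neutralizes the chemokine CXCL12. Per the study's methods, AA was induced by injecting cells of skin-draining lymph nodes into recipients. Neither the vehicle nor the dose and timing of the antibody was named in the sources used here. Each group was 1 library pooled from the skin of 7 to 8 mice, so no spread between mice could be measured and no p-value is given. All intervals are 95% and cover counting error only.

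The cornified envelope is the protein shell that replaces the plasma membrane of keratinocytes as they leave the living epidermis. Involucrin (*Ivl*) and then loricrin (*Lor*) are laid down as scaffold, small proline-rich proteins (Sprr) bridge them, late cornified envelope proteins (Lce) are added late, and transglutaminases (*Tgm1*, *Tgm3*) cross-link the whole. Filaggrin and its relatives (*Flg*, *Flg2*, *Hrnr*, *Rptn*) bundle keratin or join the envelope, and caspase 14 (*Casp14*) helps to break filaggrin down into moisturizing factors. Sprr genes are known to be induced when the epidermis is stressed or wounded, and several of these proteins also occur in the hair follicle.

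By identifier, all 45 members matched the GENCODE vM21 annotation of mm10. Of these, 42 lay on chromosome 3 within 1.32 Mb (chr3:92080271-93399442), the epidermal differentiation complex, in which Sprr and Lce genes stand in tandem. *Tgm3* lay on chromosome 2, *Casp14* on chromosome 10 and *Tgm1* on chromosome 14. *Sprr1a* and *Sprr1b*, the members called higher over all kept cells of AA (the rule is given with the counts), have 2 exons each, at chr3:92483952-92485895 and chr3:92436809-92438789 on the minus strand. Between them lies *Sprr3* (chr3:92456502-92458720), which had 0 UMIs. The 250 bases before the start of each are shown for that reason, 5′ to 3′ on the minus strand, from RefSeq GRCm38.p6, at chr3:92485882-92486131 for *Sprr1a*, chr3:92438780-92439029 for *Sprr1b* and chr3:92458721-92458970 for *Sprr3*. Capitals mark matches on either strand to the AP-1 motif TGANTCA and to the TATA box TATAAA.
Sprr1a: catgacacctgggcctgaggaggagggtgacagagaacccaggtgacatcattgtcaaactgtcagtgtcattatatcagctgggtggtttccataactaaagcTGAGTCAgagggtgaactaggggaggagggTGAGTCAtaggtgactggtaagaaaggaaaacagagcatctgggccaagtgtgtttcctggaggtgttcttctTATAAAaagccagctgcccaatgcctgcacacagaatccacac
Sprr1b: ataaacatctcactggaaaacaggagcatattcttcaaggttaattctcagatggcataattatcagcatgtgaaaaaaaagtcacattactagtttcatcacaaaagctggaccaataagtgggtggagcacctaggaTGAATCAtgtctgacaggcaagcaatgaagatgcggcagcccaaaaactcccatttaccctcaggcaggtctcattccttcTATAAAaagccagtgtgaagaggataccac
Sprr3: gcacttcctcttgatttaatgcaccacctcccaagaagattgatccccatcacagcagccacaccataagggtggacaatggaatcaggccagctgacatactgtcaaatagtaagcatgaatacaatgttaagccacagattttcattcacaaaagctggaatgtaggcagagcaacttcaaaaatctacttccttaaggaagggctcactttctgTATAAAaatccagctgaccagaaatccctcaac

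The *Sprr1a* window held 2 AP-1 matches, which begin 146 and 116 bases before the start, the *Sprr1b* window held 1, which begins 111 bases before it, and the *Sprr3* window held none. A TATA box began 43, 30 and 33 bases before the start of *Sprr1a*, *Sprr1b* and *Sprr3*. These distances are counted from RefSeq starts. By the GENCODE positions above, the first bases of *Sprr1a* and *Sprr1b* lie inside their printed windows. The sequence just after the start was found in a GENCODE transcript of the gene for 39 of the 44 member windows, but not for *Sprr1a* or *Sprr3*. All motif counts, those over all genes included, are over the 250 bases before each start. A window was listed for 43 of the 45 members, 44 windows in all because *Tgm1* has 2. The AP-1 motif was found in 9 of 14 Sprr windows (64.3%), in 0 of 20 Lce windows and in 5 of the 10 others, against 6.75% of the 32817 windows over all genes. Unlike in the 3 printed windows, AP-1 matches and UMIs did not go together in every Sprr gene. *Sprr2i* held 1 match and had 0 UMIs over the 3 libraries, and *Sprr2k* held 2 and had 1 UMI. *Sprr2a3* held 0 and had 529 UMIs, though its start was not found in a GENCODE transcript either. A link between matches and level was not tested. The TATA box was found in 10 of 14 Sprr windows and 4 of 20 Lce windows, against 12.4% over all genes. The antioxidant response element TGACNNNGC matched in 8 of 44 member windows against 10.2% of all, and 1 of its matches overlaps the distal AP-1 match of *Sprr1a*. The interferon response element GAAANNGAAA matched in 1 of 44 member windows against 2.97% of all, and the GRHL motif AACCNGGTT in 0 of 44 against 0.241%. A match of letters is a description of the window and not a binding site.

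Cells with at most 10% mitochondrial UMIs (unique molecular identifiers, which count captured mRNA molecules once) and at least 200 genes were kept, 6582 in Neg, 10433 in AA and 9832 in AA+Ab, with medians of 13694, 11177 and 11371 UMIs. Between 17 and 28 barcodes were shared by a pair of libraries, at most 0.267% of the smaller one. After scored doublets were removed, 24746 cells were clustered without the member genes among the variable genes, and clusters were named from fixed markers. Suprabasal-like cells (594, 1001 and 834 in Neg, AA and AA+Ab) came from 2 clusters, in which 11 and 14 of 14 markers were found, *Krt1*, *Krt10* and *Krtdap* among them. Basal-like cells (1964, 2915 and 2741) came from 3 clusters with 5 to 9 of 14 markers. One of those 3 was led by interferon-induced genes such as *Iigp1*, *Gbp2* and *Isg15* and held 11, 290 and 50 cells. Upper follicle-like cells (190, 262 and 384) were 1 cluster with 9 of 12 markers, led by *Krt79*, *Defb6* and *Cst6*. *Sprr1a* was itself among the 10 leading genes of that cluster by fold. Median UMIs per cell fell in the order Neg, AA+Ab, AA in each class, from 16438 to 13564 and 12725 in suprabasal-like cells and from 21516 to 13934 and 11204 in upper follicle-like cells; the part of depth in the results was not tested.

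Most of the family was close to silent in these suspensions. A UMI was found for 37 of the 45 members, 12 reached 100 UMIs over the 3 libraries, 25 had 1 to 86 and 8 had 0. The 8 were *Sprr2i*, *Sprr3*, *Lce1h*, *Lce1j*, *Lce3a*, *Lce3b*, *Lce3e* and *Lce3f*. A count of 0 allows up to 3 UMIs per library, which is 0.0252, 0.0221 and 0.0215 CPM, the UMIs of a gene per 1000000 UMIs of the same cells, in Neg, AA and AA+Ab. Of the 12, 3 were Sprr genes (*Sprr1a*, *Sprr1b*, *Sprr2a3*), 1 was an Lce gene (*Lce6a*) and 8 were among the 9 further genes, all but *Rptn*.

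**Figure D1:**
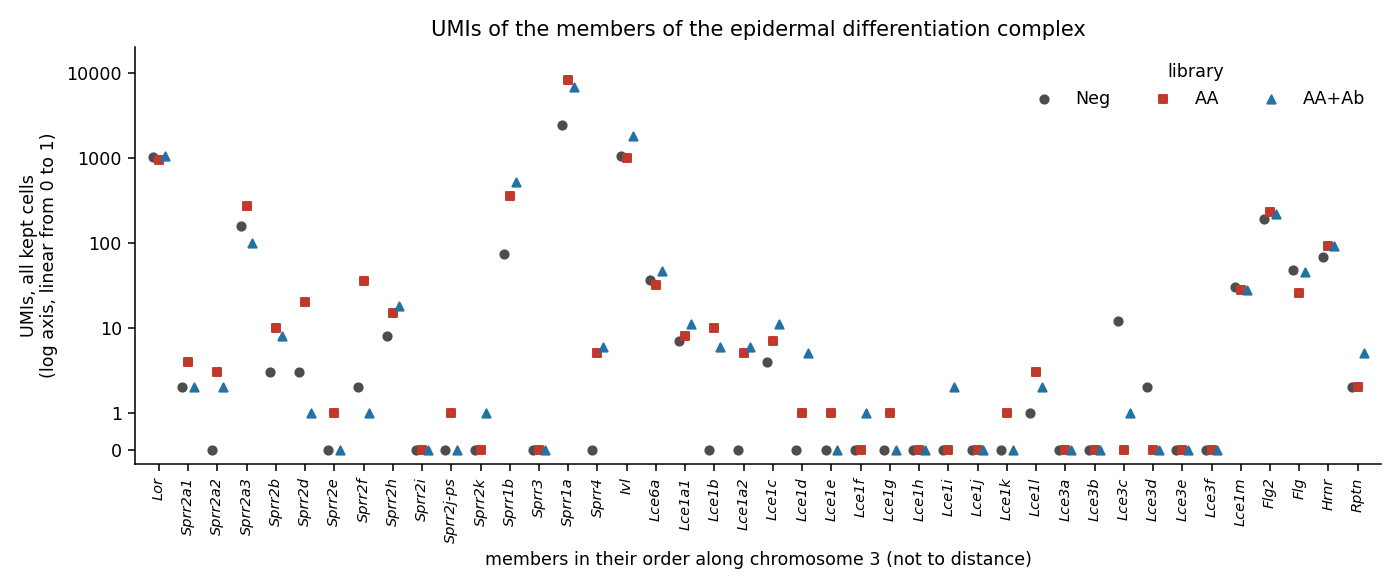
UMIs over all kept cells (log axis, linear from 0 to 1) for the 42 members on chromosome 3, in their order along the chromosome, 1 point per library. *Sprr1a* stands highest with 2408, 8204 and 6783 UMIs in Neg, AA and AA+Ab, whereas its neighbour *Sprr3* and most Lce genes lie at or near 0.

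Over all kept cells, the 45 members together held 61.35 CPM in Neg, 109 in AA and 102 in AA+Ab. *Sprr1a* made up 32.9% of the member UMIs in Neg and 55.5% in AA. Without *Sprr1a*, the other 44 members held 41.15, 48.6 and 53.8 CPM, so most of the rise from Neg to AA was that of 1 gene. In such sums over all cells, fewer cells of a type and less RNA per cell cannot be told apart. A gene is called here where its CPM ratio was at least 2 or at most 0.5 with at least 20 UMIs in each library, a rule of size with no test.

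Over all kept cells, 13 of the 45 members could be read by that rule. From Neg to AA, 2 were called higher, *Sprr1a* and *Sprr1b*, beside 2.09% of the 17354 genes that could be read, and 1 was called lower, *Flg*, beside 1.72%. From AA to AA+Ab, 0 were called higher, beside 1.26%, and 1 lower, *Sprr2a3*, beside 2.78%. The AA library is part of both comparisons, so their directions are not independent.

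*Sprr1a*, a cross-bridging protein of the envelope, had its largest ratio of AA to Neg among the 3 keratinocyte classes in suprabasal-like cells. Its level there was 29.9 CPM in Neg (27.15 to 32.9, 424 UMIs), 248 in AA (240 to 257, 3377 UMIs) and 139 in AA+Ab (133 to 145, 1977 UMIs). AA was thus highest, Neg lowest, and AA+Ab lay between them, with no overlap of the intervals. The ratio of AA to Neg was 8.29 (7.49 to 9.19), and that of AA+Ab to AA was 0.5605 (0.530 to 0.593), which falls short of the 2-fold rule. Both suprabasal-like clusters gave a like ratio of AA to Neg, 7.52 (6.67 to 8.505) in the larger and 7.55 (6.21 to 9.25) in the other, which had all 14 markers. With finer clusters (resolution 1.5), a suprabasal-like cluster led by *Sprr1a* itself, *Krt16* and *Lypd3* held 128, 381 and 156 cells in Neg, AA and AA+Ab. The part of such a mix within the 2 clusters in these ratios was not tested. With 1000 UMIs drawn from each cell the log2 ratio was 2.59 in place of 3.05, and without the 10 cells with the most member UMIs in each library it was 3.32. An unnamed cluster of 68, 99 and 56 cells, led by *Krt24*, *Zfpm2* and *Tnc*, had a larger ratio with a wide interval, 12.4 (6.54 to 26.4), at 11.7, 145 and 64.4 CPM. The median log2 ratio of all 10970 genes read in suprabasal-like cells was -0.13.

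More suprabasal-like cells carried the transcript in AA. A *Sprr1a* UMI was found in 60 of 594 cells in Neg (10.1%, Clopper-Pearson interval 7.80 to 12.8), 203 of 1001 in AA (20.3%, 17.8 to 22.9) and 143 of 834 in AA+Ab (17.15%, 14.65 to 19.9). Thinned to 1000 UMIs per cell, with 3, 1 and 5 shallower cells left out, it was found in 13 of 591, 90 of 1000 and 53 of 829 cells, or 2.20%, 9% and 6.39%. Free RNA sets a background for such shares. T cell-like cells are not known to make envelope proteins, and 1.96%, 2.49% and 1.84% of them had a *Sprr1a* UMI at median depths of 5120, 3620 and 3950 UMIs, and after thinning 0%, 1.445% and 0.9615%. As a point value, that background lay below every share in suprabasal-like cells. After thinning, however, the Neg share of 2.20% cannot be told from 0 of 102 T cell-like cells, an interval that reaches 3.55%. Before thinning, the background rested on 2, 9 and 4 cells, so its overlapping intervals cannot show whether the background differed between libraries.

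*Sprr1b*, the close relative of *Sprr1a*, had far fewer UMIs and was concentrated in few cells. In suprabasal-like cells it had 11 UMIs in Neg, 186 in AA and 118 in AA+Ab, or 0.777, 13.7 and 8.30 CPM. The Neg count lies under the minimum of 20, so the gene is not called there; its ratio of AA to Neg was 17.6 with a wide interval (9.61 to 35.9). It was found in 4, 18 and 17 suprabasal-like cells, and 121 of the 186 UMIs in AA came from 1 cell. Without the 10 cells with the most member UMIs in each library, the log2 ratio of AA+Ab to AA went from -0.72 to 0.52. Of the suprabasal-like *Sprr1b* UMIs, 100%, 94.1% and 95.8% lay in cells that also had a *Sprr1a* UMI. Such cells had more UMIs than the others (medians of 23216 against 15836 in Neg, 14592 against 12456 in AA), and the part of that depth was not tested.

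Of the 8 members read in suprabasal-like cells between Neg and AA, *Sprr1a* was the 1 called higher, beside 1.03% of genes, and 0 were called lower, beside 2.98%. Between AA and AA+Ab, 10 members were read, with 0 called higher, beside 0.899%, and 0 lower, beside 1.45%.

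**Figure D2:**
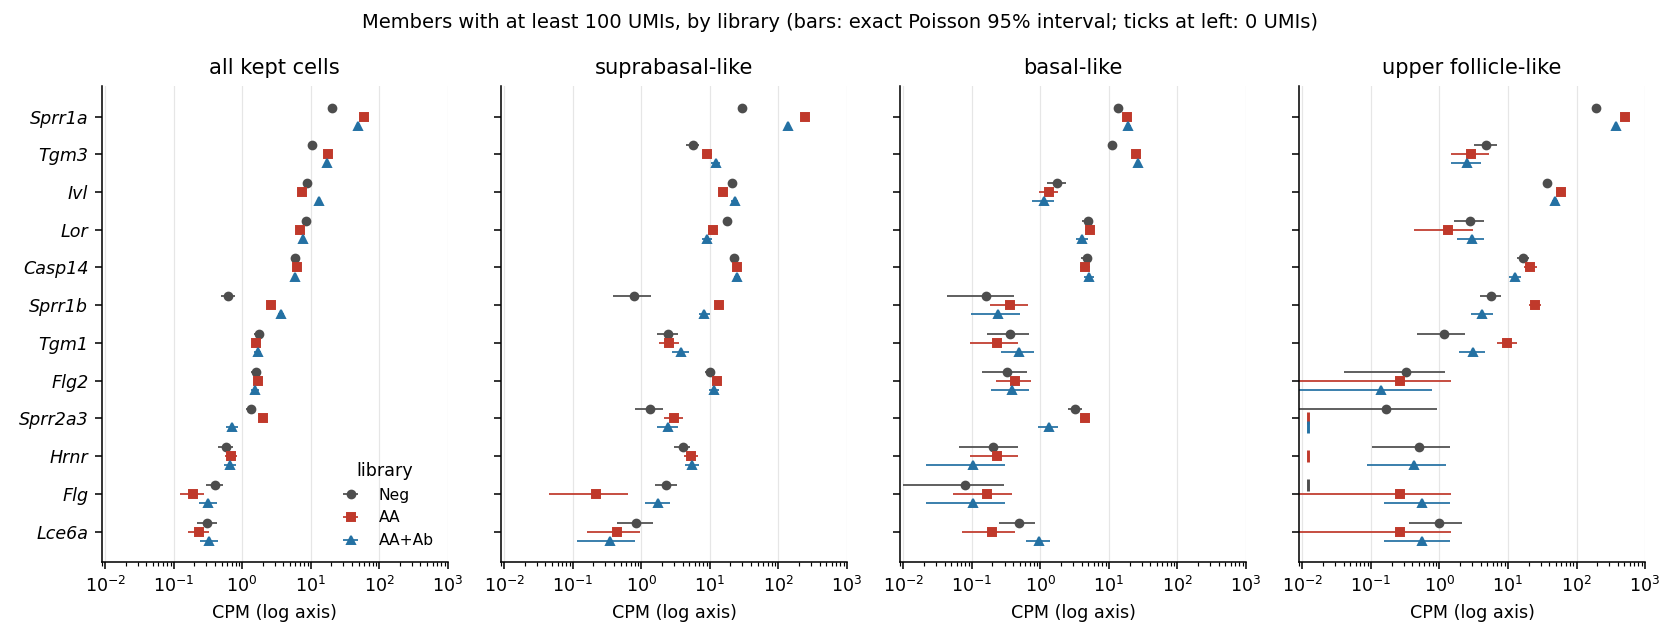
CPM (log axis) of the 12 members with at least 100 UMIs, by library, in all kept cells and 3 keratinocyte classes, with exact Poisson 95% intervals and ticks at the left for 0 UMIs. *Sprr1a* in suprabasal-like cells goes from 29.9 in Neg to 248 in AA and 139 in AA+Ab, whereas *Casp14* lies between 22.45 and 25.35 in all 3 libraries.

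Upper follicle-like cells had the highest *Sprr1a* level of any class, 193 CPM in Neg (182 to 204), 516 in AA (494 to 540) and 377 in AA+Ab (363 to 391). The order of the libraries was that of suprabasal-like cells, with smaller ratios: AA to Neg was 2.68 (2.49 to 2.88) and AA+Ab to AA was 0.7295 (0.688 to 0.774). A *Sprr1a* UMI was found in 57 of 190, 103 of 262 and 152 of 384 of these cells. Few cells carried much of it, and the 10 cells with the most *Sprr1a* held 71.3%, 54.3% and 41.2% of its UMIs. Without the 10 cells with the most member UMIs in each library, the log2 ratio of AA to Neg was 2.02 in place of 1.42, and that of AA+Ab to AA was -0.08 in place of -0.46.

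*Sprr1b* had 34, 94 and 30 UMIs in upper follicle-like cells of Neg, AA and AA+Ab, or 5.60, 24.95 and 4.21 CPM. AA stood above both other libraries, with ratios of 4.455 (2.98 to 6.80) for AA to Neg and 0.169 (0.108 to 0.257) for AA+Ab to AA, but these UMIs came from 2, 9 and 4 cells. With classes set per cell from keratin pairs, the log2 ratio of AA+Ab to AA turned from -2.57 to 1.98. *Tgm1*, the membrane-bound transglutaminase, had 7, 37 and 22 UMIs there, which gave 1.15, 9.82 and 3.085 CPM. Its ratio of AA+Ab to AA was 0.314 (0.1765 to 0.547), and its Neg count was too low for a call against AA. With classes from keratin pairs its log2 ratio of AA+Ab to AA was -0.19 in place of -1.67, and the call was lost. Of 4 members read between Neg and AA, 2 (*Sprr1a*, *Sprr1b*) were called higher, beside 2.74% of 9496 genes, and 0 lower, beside 0.748%. Of 5 read between AA and AA+Ab, 0 were called higher, beside 0.336%, and 2 (*Sprr1b*, *Tgm1*) lower, beside 3.24%.

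**Figure D3:**
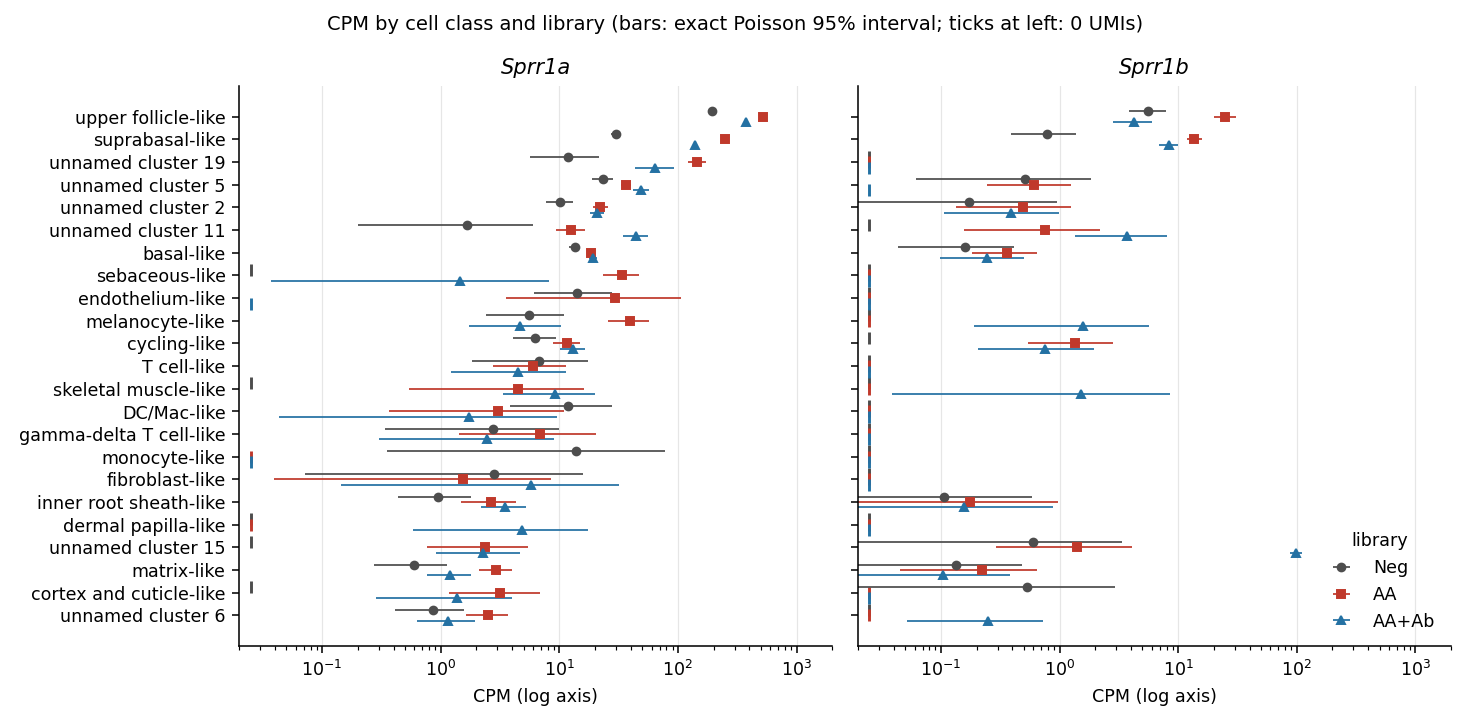
CPM (log axis) of *Sprr1a* and *Sprr1b* by cell class and library, with exact Poisson 95% intervals, classes in the order of the *Sprr1a* level, and ticks at the left for 0 UMIs. *Sprr1a* is highest in upper follicle-like and suprabasal-like cells, and the AA+Ab point of *Sprr1b* in the unnamed cluster 15, at 99.1 CPM, stands apart from Neg and AA there.

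In basal-like cells the pattern differed by gene. *Sprr1a* stood at 13.5 CPM in Neg (12.1 to 15.1), 18.45 in AA (16.95 to 20.05) and 19.3 in AA+Ab (17.7 to 20.9), with a ratio of AA to Neg of 1.36 (1.19 to 1.57). The 10 cells with the most *Sprr1a* gave 223 of the 336 UMIs in Neg. The basal-like cluster led by interferon-induced genes held 139 of the 559 UMIs in AA, at 42.02 CPM, and 0 of the 554 in AA+Ab. Without that cluster the log2 ratio of AA to Neg was 0.20 in place of 0.45, without the 10 cells with the most member UMIs in each library it was 0.94, with the member genes among the variable genes it was 1.18, and with finer clusters (resolution 1.5) it was -0.01. The shares of basal-like cells with a *Sprr1a* UMI, 3.51%, 5.49% and 4.09%, became 0.818%, 1.27% and 1.10% after thinning. These cannot be told from the thinned shares of T cell-like cells, which rest on 0, 5 and 2 cells, so no difference between libraries is drawn from the shares. By CPM, T cell-like cells had 6.75 (1.84 to 17.3), 6.02 (2.75 to 11.4) and 4.49 (1.22 to 11.5). Basal-like cells lay above these intervals in AA and AA+Ab but not in Neg. In the basal-like clusters not led by interferon-induced genes, the ratio of AA to Neg was 2.25 (1.54 to 3.34) and 0.962 (0.8195 to 1.13).

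*Tgm3*, a soluble transglutaminase of the epidermis and hair follicle, was the 1 member called higher in basal-like cells from Neg to AA. It had 278 UMIs in Neg, 742 in AA and 765 in AA+Ab, or 11.2 (9.915 to 12.6), 24.5 (22.8 to 26.3) and 26.6 CPM (24.75 to 28.6). AA and AA+Ab had overlapping intervals, and both stood above Neg. The ratio of AA to Neg was 2.19 (1.90 to 2.52), and the UMIs were spread over 176, 443 and 458 cells (8.96%, 15.2% and 16.7%, or 0.869%, 2.06% and 2.34% after thinning). In T cell-like cells 1, 0 and 0 cells had a *Tgm3* UMI. Its log2 ratio of 1.13 was 1.12 without the cluster led by interferon-induced genes, and 1.11 without the 10 cells with the most member UMIs in each library.

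*Sprr2a3* was the member called lower in basal-like cells from AA to AA+Ab, with 80, 137 and 38 UMIs in Neg, AA and AA+Ab. This was 3.22, 4.52 and 1.32 CPM, and the ratio of AA+Ab to AA was 0.292 (0.198 to 0.421). Within the cluster led by interferon-induced genes the level was higher, at 21.5 CPM in AA (71 UMIs) and 31.4 in AA+Ab (20 UMIs), with 1 UMI in Neg. In the other 2 basal-like clusters it was 2.39 and 4.04 CPM in Neg, 1.69 and 3.15 in AA and 0.924 and 0.253 in AA+Ab. How reads of *Sprr2a3* were assigned or lost is uncertain. Of the 50-base stretches in the last 500 bases of its longest transcript, 77.8% are also found in other genes. *Sprr2a1*, *Sprr2a2* and pseudogenes such as *Rpl21-ps8* are among those genes. *Sprr2a1* and *Sprr2a2* share all of these stretches and had 8 and 5 UMIs. No such stretch of *Sprr1a* or *Sprr1b* was found in another gene.

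Of 6 members read in basal-like cells between Neg and AA, 1 was called higher, beside 0.753% of 12212 genes, and 0 lower, beside 0.974%. Between AA and AA+Ab, 0 of 6 were called higher, beside 0.628%, and 1 lower, beside 1.21%.

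**Figure D4:**
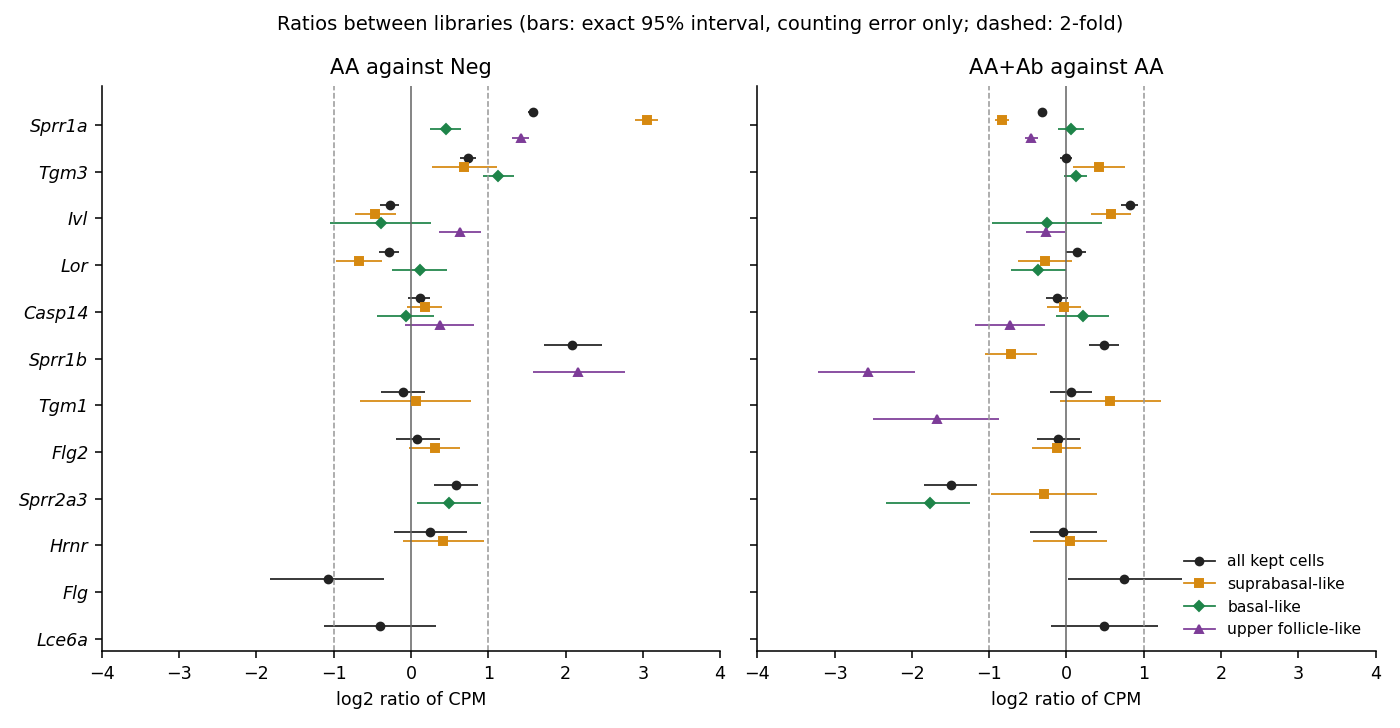
Log2 ratio of CPM between libraries for the 12 members with at least 100 UMIs, in all kept cells and 3 classes where both libraries had at least 20 UMIs, with exact 95% intervals for counting error and dashed lines at 2-fold. The suprabasal-like *Sprr1a* point for AA against Neg, at 3.05, lies farthest to the right, and the upper follicle-like *Sprr1b* point for AA+Ab against AA, at -2.57, farthest to the left.

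Neither scaffold gene was called in the 3 keratinocyte classes or over all kept cells. *Ivl*, the early scaffold, stood at 21.2 CPM in suprabasal-like cells of Neg (18.85 to 23.7), 15.4 in AA (13.4 to 17.7) and 22.9 in AA+Ab (20.5 to 25.6), with AA lowest. Neither ratio reached 2-fold (0.728 and 1.49), and without the 10 cells with the most member UMIs in each library the log2 ratio of AA to Neg turned from -0.46 to 0.28. Within suprabasal-like cells, *Ivl* was almost confined to the cluster with all 14 markers, where it was 46.5, 58.2 and 57.5 CPM, against 2.46, 3.03 and 2.14 in the larger one. That cluster held 134 of the 594, 178 of the 1001 and 185 of the 834 suprabasal-like cells, so the mix of clusters differed between libraries. The ratio of AA to Neg within each cluster, 1.25 (1.03 to 1.52) and 1.23 (0.685 to 2.28), was above 1 whereas that of the class was below it. In upper follicle-like cells *Ivl* was 37.55, 58.4 and 48.4 CPM, in the order of *Sprr1a*, and without the 10 cells with the most member UMIs in each library the log2 ratio of AA to Neg was 1.27 in place of 0.64, past 2-fold.

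*Lor*, the main late scaffold protein, stood at 17.7 CPM in suprabasal-like cells of Neg (15.6 to 20.1), 11.2 in AA (9.46 to 13.1) and 9.22 in AA+Ab (7.71 to 10.9). Neg lay above both others, though the ratio of AA to Neg was 0.630 (0.512 to 0.774) and not called. In Neg, 1 cell gave 105 of the 251 UMIs, and without the 10 cells with the most member UMIs in each library the log2 ratio was -0.24 in place of -0.67. Within the larger suprabasal-like cluster the ratio was 1.04 (0.707 to 1.54), and within the one with all 14 markers, at 33.5, 28.1 and 14.03 CPM, it was 0.838 (0.644 to 1.08). *Lor* was found at like levels in other classes. Matrix-like cells of the hair bulb had 16.3, 15.99 and 19.7 CPM, and an unnamed cluster led by *Csta1*, *Tchh* and *Fabp4*, with the companion layer keratin *Krt75* among its leading genes, had 33.5, 34.2 and 27.7.

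That cluster of 70, 108 and 179 cells carried several envelope genes at once. With the 3 libraries summed, it had the highest CPM of any class of *Ivl*, *Tgm3*, *Tgm1*, *Lor* and *Sprr1b*. By library, *Ivl* was 134, 110 and 239 CPM, *Tgm3* 122, 121 and 140, and *Tgm1* 15.6, 13.6 and 17.7. It had next to no *Sprr1a*, with 0, 5 and 7 UMIs. The rise of *Ivl* over all kept cells from AA to AA+Ab, from 7.37 to 13.0 CPM, had 742 of the 1816 AA+Ab UMIs in this cluster. Its *Sprr1b* was 1, 3 and 308 UMIs, of which 215 in AA+Ab came from 1 cell with 12318 UMIs in all, so the *Sprr1b* sum over all kept cells in AA+Ab (514 UMIs) rested on that cell for 41.8%.

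**Figure D5:**
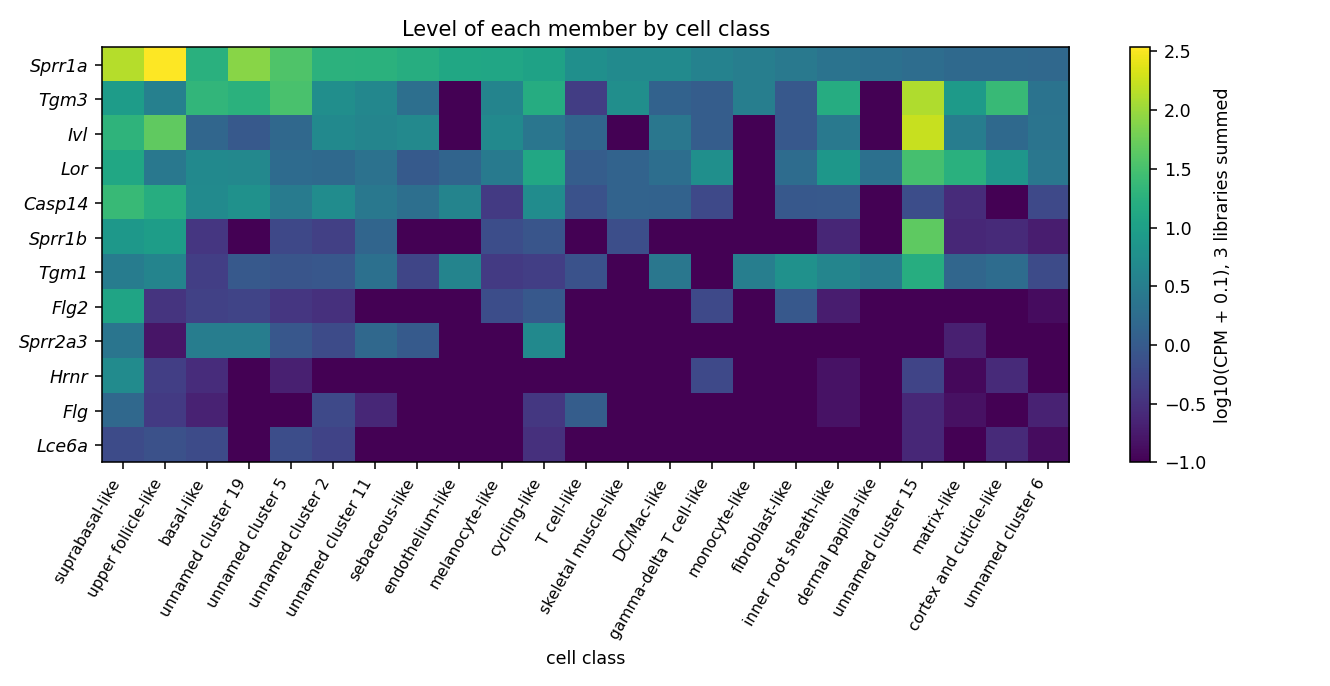
Level of the 12 members with at least 100 UMIs by cell class, as log10 of CPM plus 0.1 with the 3 libraries summed. *Flg2* and *Hrnr* are brightest in suprabasal-like cells, *Sprr1a* in upper follicle-like (342 CPM) and suprabasal-like cells (138), and *Ivl* and *Tgm3* in the unnamed cluster 15 (174 and 130).

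Among clustered cells, suprabasal-like cells held 87.9% of the *Flg2* UMIs, 87.45% of those of *Hrnr* and 58.65% of those of *Flg*. *Flg2* stood there at 10.2, 12.6 and 11.54 CPM and *Hrnr* at 4.02, 5.36 and 5.56 in Neg, AA and AA+Ab, with overlapping intervals in each case. Nearly all of it lay in the cluster with all 14 markers, where *Flg2* was 22.9, 54.9 and 29.75 CPM and *Hrnr* 9.13, 23.9 and 14.4. The ratios of AA to Neg within that cluster were 2.40 (1.90 to 3.025) for *Flg2* and 2.61 (1.82 to 3.78) for *Hrnr*, and those of AA+Ab to AA were 0.542 (0.433 to 0.677) and 0.604 (0.433 to 0.843). In AA, however, 129 of the 228 *Flg2* UMIs and 39 of the 93 *Hrnr* UMIs over all kept cells came from a single top cell with 15619 UMIs in all. The top AA cell of *Lor* (43 UMIs) had the same total, so these are likely 1 and the same cell. *Flg* had 48, 26 and 45 UMIs over all kept cells, or 0.403 (0.297 to 0.534), 0.192 (0.125 to 0.281) and 0.322 CPM (0.235 to 0.431). AA was lowest, and the ratio of AA to Neg was 0.476 (0.2835 to 0.783). Without the 10 cells with the most member UMIs in each library its log2 ratio was -0.01 in place of -1.07, and the call was lost. In suprabasal-like cells the *Flg* counts were 33, 3 and 25, too few for a call, and 26 of the UMIs in Neg came from 1 cell. The top Neg cells of *Lor* (105 UMIs), *Ivl* (78), *Hrnr* (28) and *Flg* (26) all had a total of 97188 UMIs, so these too are likely 1 and the same cell. *Rptn* had 9 UMIs in all.

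*Casp14* stood at 22.45, 25.35 and 24.8 CPM in suprabasal-like cells of Neg, AA and AA+Ab, with a ratio of AA to Neg of 1.13 (0.967 to 1.32). In the cluster with all 14 markers it was 30.04, 46.4 and 33.1 CPM, and the ratio was 1.545 (1.23 to 1.935). *Tgm1* was 2.47, 2.57 and 3.80 CPM there and *Tgm3* 5.65, 9.11 and 12.2. The *Tgm3* ratio of AA to Neg in suprabasal-like cells was 1.61 (1.21 to 2.16). None of the 3 enzymes was called in that class.

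The 21 Lce genes together had 93, 97 and 119 UMIs over all kept cells, or 0.780, 0.715 and 0.852 CPM, with overlapping intervals. *Lce6a*, the most abundant of them, had 37, 32 and 46 UMIs, with a ratio of AA to Neg of 0.760 (0.458 to 1.25). In suprabasal-like cells the family sum was 43, 21 and 10 UMIs, or 3.04 (2.20 to 4.09), 1.54 (0.955 to 2.36) and 0.7035 CPM (0.337 to 1.29). Of the 43 UMIs in Neg, 11 were of *Lce3c* in 1 cell, and 10 of the 17 of *Lce1m* were in 1 cell, so the order of the libraries rests in part on these cells. In upper follicle-like cells it was 8, 23 and 18 UMIs, or 1.32, 6.10 and 2.52 CPM, with 3, 11 and 6 Lce genes found. Members of the Lce1 and Lce3 groups share between 6.65% and 49.3% of the examined stretches with a relative, so reads could be assigned to another of the group or lost (of these groups, *Lce1m* shares none). Single cells also set some counts of the rare members. *Lce3c* had 12 UMIs in Neg, 11 of them in 1 cell, *Sprr2d* had 20 in AA, 18 of them in 1 cell, and *Sprr2f* had 36 in AA against 2 in Neg and 1 in AA+Ab, from 6 cells.

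Other genes of cornification were read from a list of 93, which included several of the markers that name suprabasal-like cells, such as *Krt1* and *Krt10*. In suprabasal-like cells 80 of them had enough UMIs. From Neg to AA, 2 were called higher (*Ovol1*, *Fosl1*), beside 1.03% of all genes read, and 3 lower (*Cdsn*, *Klk5*, *Kprp*), beside 2.98%. The median log2 ratio of the list was -0.01 beside -0.13 over all genes. From AA to AA+Ab, 4 were called higher (*Cdsn*, *Dsc1*, *Klk5*, *Kprp*), beside 0.899%, and 3 lower (*Fosl1*, *Ovol1*, *Prdm1*), beside 1.45%. The median was 0.05 beside 0.00. All 16 barrier lipid genes read stayed within 2-fold in both comparisons, as did most genes by these shares.

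By the rule for named genes, the 3 largest ratios of AA to Neg in the list belonged to regulators. *Ovol1*, a repressor in epidermal differentiation, was 41.8, 143 and 49.0 CPM in Neg, AA and AA+Ab, with a ratio of AA to Neg of 3.43 (3.125 to 3.76). *Fosl1*, a subunit of the AP-1 factor, was 273, 727 and 286.5 CPM (2.665, 2.57 to 2.77). *Cebpb*, a factor of early differentiation, was 263, 498 and 416 CPM (1.89, 1.82 to 1.97). For *Ovol1* and *Fosl1*, AA was far above both other libraries. The 3 smallest ratios belonged to genes of the upper layers. *Klk5*, a protease that sheds corneocytes, was 26.9, 11.02 and 25.3 CPM (0.410, 0.337 to 0.496). *Cdsn*, the corneodesmosin that holds them together, was 34.95, 12.6 and 31.2 (0.3595, 0.300 to 0.429), and *Kprp*, a keratinocyte proline-rich protein, was 7.625, 2.57 and 9.43 (0.337, 0.2235 to 0.498). Median UMIs per suprabasal-like cell were 16438, 12725 and 13564 in Neg, AA and AA+Ab, and the part of that depth in these values was not tested. The cluster with all 14 markers held 134 of 594, 178 of 1001 and 185 of 834 suprabasal-like cells in Neg, AA and AA+Ab. The part of this mix of clusters in these values was not tested either.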

How the data were processed

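The authors digested pooled skin, made 10x 3′ v3.1 libraries, aligned reads to mm10 and counted UMIs with Cell Ranger 7.2.0; FastQC 0.11.7 is also named in the submitters' processing notes. The deposited values are raw UMI counts per gene and barcode, with no normalization; the annotation release and the handling of intronic reads are not given in the sources used here. Kept cells had at most 10% of UMIs from mitochondrial genes and no fewer than 200 genes. Depth was 119193310, 135609481 and 139663314 UMIs in kept cells of Neg, AA and AA+Ab; precision is given by the exact Poisson, conditional or Clopper-Pearson interval of each count, and depth limits rare members most.

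Doublets were scored against simulated doublets (2 per cell, 20 components, 0.8% per 1000 barcodes; 367, 908 and 826 cells) and left out of clusters, not of sums over all kept cells; of 300 doublets added to Neg, 131 were recovered. Seurat 5.3.0 in R 4.3.3 clustered the cells without integration (2000 variable genes without the members, 30 components, resolution 0.8). A marker counted when found in 25% of a cluster's cells at 2 times the CPM of other cells, with 5 added to each; a name needed 3 markers and 35% of its list, and where several lists qualified the 10 leading genes decided. These thresholds were set after the clusters were seen. UMIs were summed per library and class, since cells are not replicates, and divided by all UMIs of those cells. CPM counts molecules, so it was not scaled by gene length.

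The comparisons were AA against Neg and AA+Ab against AA, with 1 library per group and no test. Members and lists were chosen with earlier results of these data known. Named members had at least 100 UMIs; from the cornification list the 3 largest and 3 smallest ratios in suprabasal-like cells were named, and other rare members were named after their values were seen. The step was tested on simulated data with 4-fold changes in 200 genes per population: 183 of 183, 180 of 180, 174 of 174 and 153 of 153 readable genes were recovered in all kept, suprabasal-like, basal-like and upper follicle-like cells, among 17683, 11466, 12362 and 9724 genes. These counts had Poisson error only and changes well past the 2-fold rule, so high recovery was built in. The simulation does not cover changes near 2-fold or UMIs concentrated in single cells. Python 3.11.15, numpy 2.4.6, scipy 1.17.1, pandas 2.3.3, scikit-learn 1.9.0 and matplotlib 3.10.9 were used.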

Additional observations from a re-analysis of the deposited data

How the results depend on the processing

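The counts of called members were recomputed under other filters, scalings, depths and classes; 83 recomputed counts stayed within 1.5 times and 21 did not. From Neg to AA, the 1 called in suprabasal-like cells became 2 with doublets kept (*Tgm3* added), 3 with at least 40 UMIs summed (*Sprr1b*, *Sprr2a3*) and 2 with classes per cell from keratin pairs (*Sprr1b*). The 3 over all kept cells became 1, *Sprr1a*, with at least 100 UMIs in each library or 1000 UMIs per cell. The 1 in basal-like cells became 0 at 1000 UMIs per cell and 2 without the 10 cells richest in member UMIs (*Sprr2a3* added) or with members among the variable genes (*Sprr1a*), and the 2 in upper follicle-like cells became 1, *Sprr1a*, with 100 UMIs, 1000 UMIs per cell or keratin pairs. From AA to AA+Ab, the 0 in suprabasal-like cells became 1 without the 10 richest cells (*Flg2* higher) and 2 with keratin pairs (*Sprr1a* and *Sprr1b* lower). The 1 over all kept cells became 0 with 100 UMIs. The 1 in basal-like cells became 0 with 100 UMIs, at 1000 UMIs per cell and without the cluster led by interferon-induced genes, where *Sprr2a3* had too few UMIs. The 2 in upper follicle-like cells became 0 with 100 UMIs or 1000 UMIs per cell, and 1 without the 10 richest cells or with keratin pairs. Higher minima and thinning leave fewer members to read; the other causes were not tested. With keratin pairs, *Sprr1b* in upper follicle-like cells reversed for AA+Ab against AA, from a log2 ratio of -2.57 to 1.98. The alternatives on basal-like clusters were chosen after seeing the data. *Sprr1a* in suprabasal-like cells was called for AA against Neg under every alternative run there. For single members, 638 recomputed log2 ratios stayed within the counting interval of the reported one and 75 left it; of the ratios called as reported, 1 changed sign (*Sprr1b*, above). Ratios that were not called changed sign more often, among them, without the 10 richest cells, *Ivl* in suprabasal-like cells for AA against Neg (-0.46 to 0.28) and *Sprr1b* there for AA+Ab against AA (-0.72 to 0.52), and, with keratin pairs, *Ivl* in upper follicle-like cells for AA+Ab against AA (-0.27 to 0.92). No paired analysis was possible because each group is 1 library.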
